A study of Mus musculus with 4 samples.

Results

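The proteasome genes of T cells cultured toward induced regulatory T cells (induced Treg cells) were described in RNA-seq libraries labelled MSC KO and WT. Members were the genes whose symbol begins with Psm, a letter from a to g and a digit in both deposited gene tables. There were 48 such symbols among 22120 symbols kept from both tables, and 46 had a mean of at least 1 FPKM (fragments scaled by transcript length and by the mapped fragments of the library, a unit read from the tables' layout) over the 4 libraries, out of 10587 genes tested. The 46 were 31 constitutive subunits of the 20S core and the 19S particle, 5 immunoproteasome genes (Psmb8, Psmb9, Psmb10, Psme1 and Psme2), and 10 others. The others were the activator Psme4, the inhibitor Psmf1, 7 assembly factors, and Psmc3ip, which matches by its letters only and is a meiotic recombination factor. Below the filter were Psma8, the germ cell alpha subunit, at 0.145 and 0.111 FPKM in MSC KO-labelled libraries against 0.0684 and 0.136 FPKM in WT, and Psmb11, the subunit of thymic cortical epithelium, at 0.0456 and 0.0649 FPKM against 0.0252 and 0.0308. Psme3, the nuclear activator subunit, stood alone in the first table (93.2 FPKM in MSC KO-labelled 1, 94.8 FPKM in WT 1) and was joined with Aoc2 in the second table, so it was not counted as a member.

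Naive T cells of C57BL/6 mice, of MSC KO or WT genotype, were sorted and stimulated through CD3 and CD28 with antibodies bound to the plate (1 µg/ml) for 3 days, in the presence of TGF-beta (2 ng/ml). There were 2 libraries of each genotype. Msc encodes musculin, which belongs to the basic helix-loop-helix transcription factors. The labels give neither the part of Msc that was removed nor the cells in which it was removed. Whether the replicates are separate animals or cultures is not in the labels either, so the p-values measure the spread of these libraries alone, and that spread may be technical. The authors deposited MSC KO 1 with WT 1 in a first table and MSC KO 2 with WT 2 in a second.

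The proteasome is the protease that degrades ubiquitin-tagged proteins. Its 20S core is a stack of alpha and beta rings in which Psmb6, Psmb7 and Psmb5 carry the catalytic sites named beta 1, beta 2 and beta 5. The 19S particle binds ubiquitin chains, unfolds the substrate with a ring of ATPases and feeds it into the core. In lymphocytes, and in other cells exposed to interferon gamma, the inducible subunits Psmb9 (beta 1i), Psmb10 (beta 2i) and Psmb8 (beta 5i) replace their constitutive counterparts during assembly, and the immunoproteasome so formed, often capped by the Psme1 and Psme2 activator, generates peptides for MHC class I.

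Msc itself was below 1 FPKM in every library but went against the labels. It was at 0.331 and 0.939 FPKM in MSC KO-labelled libraries against 0.0243 and 0.0178 FPKM in WT. The reason was not tested, so every direction is given for the libraries as labelled. Depth, estimated from the step that 1 fragment makes in low values, lay between 25500000 and 35000000 fragments a library. At that depth the member with the fewest fragments, Psmc3ip, had about 568 in its lowest library, a counting error of 4.19%. Of 6 T cell markers 3 were lower in both tables and 1 was higher, beside 37.5% and 31.2% of all genes. Cd3e (141 and 133 FPKM against 149 and 155) and Cd4 (166 and 209 FPKM against 173 and 189) were abundant in all libraries. Cd3g was higher, at 332 and 290 FPKM against 259 and 263, and Cd28 lower, at 27.8 and 18.3 FPKM against 31.8 and 33.4. Foxp3, which defines Treg cells, was at 2.97 and 7.05 FPKM in MSC KO-labelled libraries against 62.8 and 66 FPKM in WT. The other induced Treg markers did not follow it. Ctla4 was higher, at 217 and 188 FPKM against 112 and 120, and Il2ra overlapped between the groups, at 364 and 307 FPKM against 302 and 317. Of 4 B cell markers all were listed above 0 in every library, summing to 5.87 and 5.04 FPKM in MSC KO-labelled libraries against 7.25 and 6.95 FPKM in WT, with Cd79b holding most of it. The 5 myeloid and dendritic markers summed to 4.15 and 3.98 FPKM against 1.86 and 1.66, mostly Cd68, with Csf1r listed at 0 in both MSC KO-labelled libraries. The 2 CD8 T cell markers summed to 9.13 and 19.8 FPKM against 11.3 and 11.7, mostly Cd8b1, which overlapped between the groups. Cd8a was lower, at 0.571 and 0.658 FPKM against 1.58 and 1.9. The NK cell marker Ncr1 was listed at 0 in all libraries and Klrb1c at up to 0.0688 FPKM. Of 3 gamma delta T cell markers the tables hold Sox13, at up to 0.0623 FPKM, and of 2 erythroid markers they hold 0. Of the thymic epithelium markers Foxn1 was listed at 0 in all libraries, and Prss16 was at 6.77 and 7.33 FPKM against 3.27 and 3.73. The part of these cells in the results was not tested, and in bulk RNA fewer cells of a type and less RNA per cell cannot be told apart.

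The RefSeq windows (GRCm38.p6, from 250 bases before to 50 bases after the start) of the 3 immunoproteasome genes that hold a searched motif, and of Psmb5, the member that differed most in the other direction, are printed 5′ to 3′ on the gene's strand. Capitals mark letters of the motifs searched on both strands, which were an interferon-stimulated response element core (TTTC, any 2 bases and TTTC again), a gamma-activated sequence (TTCNNNGAA), antioxidant response element cores (TGACNNNGC and TGAGNNNGC) and the CCAAT box (CCAAT). Positions are counted from 1 at the 5′ end of the window.
Psmb8 (chr17:34197945-34198244, + strand): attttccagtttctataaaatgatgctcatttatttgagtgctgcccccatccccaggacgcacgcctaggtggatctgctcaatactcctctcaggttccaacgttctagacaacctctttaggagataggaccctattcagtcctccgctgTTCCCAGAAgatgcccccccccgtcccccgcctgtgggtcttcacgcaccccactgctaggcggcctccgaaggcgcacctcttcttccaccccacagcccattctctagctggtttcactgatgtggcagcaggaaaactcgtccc
Psmb9 (chr17:34187281-34187580, − strand): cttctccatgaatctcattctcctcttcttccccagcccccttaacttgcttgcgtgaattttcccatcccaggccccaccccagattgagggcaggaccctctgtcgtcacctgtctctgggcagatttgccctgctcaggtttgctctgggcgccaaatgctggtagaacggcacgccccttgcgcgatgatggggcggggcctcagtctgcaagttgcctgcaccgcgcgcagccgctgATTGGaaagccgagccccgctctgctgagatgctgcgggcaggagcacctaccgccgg
Psme1 (chr14:55578244-55578543, + strand): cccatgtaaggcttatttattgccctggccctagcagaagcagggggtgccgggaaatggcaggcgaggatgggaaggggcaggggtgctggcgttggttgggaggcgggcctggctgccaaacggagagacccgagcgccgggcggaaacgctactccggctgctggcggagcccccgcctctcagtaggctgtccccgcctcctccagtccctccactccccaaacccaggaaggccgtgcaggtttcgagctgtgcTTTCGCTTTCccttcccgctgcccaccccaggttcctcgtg
Psmb5 (chr14:54617946-54618245, − strand): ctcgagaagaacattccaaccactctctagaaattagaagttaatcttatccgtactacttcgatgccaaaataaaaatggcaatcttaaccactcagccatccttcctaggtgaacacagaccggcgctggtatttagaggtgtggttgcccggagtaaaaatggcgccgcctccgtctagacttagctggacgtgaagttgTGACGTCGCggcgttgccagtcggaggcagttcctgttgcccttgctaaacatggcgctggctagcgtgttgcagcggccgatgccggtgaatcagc
In these windows Psmb8 held the gamma-activated sequence letters at position 154, Psme1 the interferon-stimulated response element core at position 260, Psmb9 a CCAAT box at position 243 and Psmb5 an antioxidant response element core at position 204. Psmb10 and Psme2 were not among the members with a motif match, which does not tell a window without motifs from a missing window. Windows matched 39 of the 46 members by symbol, and a gene with several starts was counted where any of its windows held the motif. The interferon-stimulated response element core was in 5 of them (12.8%; Psme1, Psmb3, Psmd4, Psmd9 and Psmg4), against 3.99% of 27025 genes with a window. The gamma-activated sequence was in 3 (7.69%; Psmb8, Psmd2 and Psmg1), against 9.55%. The antioxidant core TGACNNNGC was in 6 (15.4%), against 14% of all genes, and TGAGNNNGC in 13 (33.3%), against 19.8%. The 5 immunoproteasome genes were in neither antioxidant count. The CCAAT box was in 13 members (33.3%), against 41.1% of all genes. No 2 motif matches overlapped in a member's window. A match is a description of letters and does not show that a factor binds.

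The 3 inducible catalytic subunits were lower in both MSC KO-labelled libraries than in both WT libraries. Psmb8 was at 542 and 516 FPKM in MSC KO-labelled libraries against 716 and 729 FPKM in WT. That is 0.757 times the WT level for the first table and 0.708 times for the second, and the groups did not overlap. Psmb9 was at 397 and 359 FPKM against 524 and 554 in WT, or 0.757 and 0.649 times the WT level. Psmb10, the least abundant of the 3, was at 54.6 and 42.2 FPKM against 71.4 and 69.8 in WT, or 0.765 and 0.605 times. WT 1 and WT 2 lay close together for each of these genes, and MSC KO-labelled 2 was the lowest library for all 3.

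The subunits of the 11S activator, which opens the core for peptides without ubiquitin, lay lower too but by unequal amounts. Psme1 was at 375 and 363 FPKM in MSC KO-labelled libraries against 404 and 410 FPKM in WT, 0.929 and 0.885 times the WT level. Psme2 was at 364 and 489 FPKM against 534 and 550 in WT, 0.681 and 0.89 times. For Psme2 the low library was MSC KO-labelled 1, the reverse of the inducible beta subunits, although the groups did not overlap. Reads of Psme2 may be shared with Psme2b, a near copy elsewhere in the genome, so that its level is less certain. Psme4, which encodes the activator PA200, overlapped between the groups at 12 and 12.8 FPKM in MSC KO-labelled libraries against 12 and 13.3 FPKM in WT. Psmf1, the inhibitor PI31, was at 15.7 and 15.2 FPKM against 17 and 17.4 in WT.

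**Figure D1:**
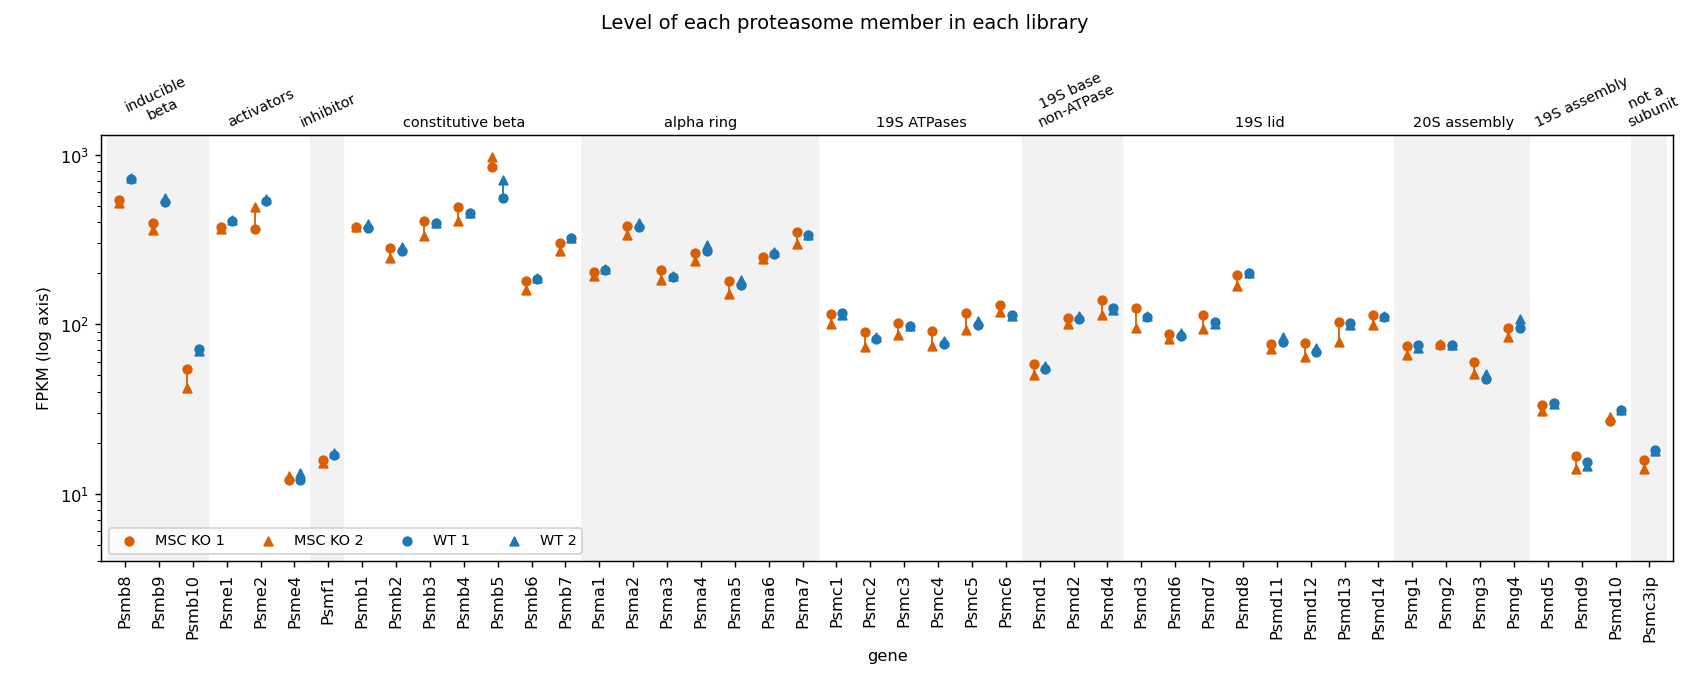
FPKM of the 46 members on a log axis, grouped by role, with the MSC KO-labelled libraries in orange left of WT in blue, circles for replicate 1 and triangles for replicate 2; lines join the replicates. Psmb8, Psmb9 and Psmb10 sit below WT in both replicates (Psmb8 at 542 and 516 FPKM against 716 and 729), and Psmb5 sits above WT. For most other constitutive subunits the MSC KO-labelled and WT points overlap.

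Of the 5 immunoproteasome genes all were lower in both tables and none overlapped between the groups. Over all genes tested, 37.5% were lower in both tables and in 32.5% both MSC KO-labelled libraries lay below both WT libraries. Their median difference, on the log2(FPKM + 1) scale, was -0.45 (-0.40 for the first table and -0.50 for the second), beside -0.02 for all genes tested. In limma, with a block term for the table, the fitted differences were -0.45 ± 0.08 for Psmb8, -0.51 ± 0.1 for Psmb9, -0.55 ± 0.13 for Psmb10, -0.14 ± 0.08 for Psme1 and -0.36 ± 0.13 for Psme2 (± standard error). Adjusted over all genes by Benjamini-Hochberg, no p passed 0.05. It was 0.153 for Psmb8, 0.16 for Psmb9, 0.184 for Psmb10, 0.416 for Psme1 and 0.268 for Psme2. The difference of Psme2 depended on the library left out, at -0.15 without MSC KO-labelled 1 and -0.57 without MSC KO-labelled 2.

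Of all 46 members, 19 were lower in both tables as deposited (41.3%, beside 37.5% of all genes) and 4 were higher (beside 31.2%). The 23 with opposite signs were each above WT in the first table and below it in the second, beside 1919 of 3270 such genes over all genes. Groups did not overlap for 16 that were lower and 4 that were higher, beside 32.5% and 26.6% of all genes. Among the 46 members 0 passed by limma, beside 0.00945% of all genes tested (1 gene), and 0 passed with no table block, beside 1.45%. At an unadjusted p under 0.05 there were 4 members, Psmb8, Psmb9, Psmb10 and Psmb5, a share below the 20.4% of all genes at that level. In the authors' deposited tables, whose test set 1 library against 1, none of the members was called in either table, beside 0.634% of 13890 genes in the first and 0.549% of 14577 in the second table. The calls depended on the MSC KO-labelled libraries. Without MSC KO-labelled 1, in a fit with no block that assumes for the lone library the spread of the WT pair, 10 members passed, all lower, beside 21.6% of all genes. They were Psmb8, Psmb9, Psmb10, Psmb3, Psmb6, Psmb7, Psmd3, Psmd8, Psmd13 and Psmc3ip. Without MSC KO-labelled 2 there were 5, beside 25.2% of all genes, namely Psmb8, Psmb9, Psmb10 and Psme2, which were lower, and Psmc6, which was higher. Without WT 1 there were 0, beside 0% of all genes, and without WT 2 there were 0, beside 0.0283%. With 2 libraries a group, an exact permutation test cannot give a two-sided p below 0.333, and none was run.

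The constitutive subunits showed no common shift in both tables. Of 31, 23 were higher than WT in the first table, whereas 29 were lower than WT in the second table. There were 8 that were lower in both (25.8%, beside 37.5% of all genes) and 2 that were higher in both (beside 31.2% of all genes). Their median difference was 0.05 for the first table and -0.17 for the second, beside -0.002 and -0.04 for all genes, and in the fit it was -0.05. With the libraries rescaled to the same sum the first table median was -0.002 in place of 0.05. MSC KO-labelled 1 lay above MSC KO-labelled 2 in 29 of the 31 (93.5%), beside 51.8% of all genes, a comparison across tables that may have been scaled apart. The median distance between the 2 WT libraries was 0.04 on the log2 scale over these subunits and that between the MSC KO-labelled libraries 0.21, beside 0.07 and 0.17 over all genes.

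The gap between the immunoproteasome and the constitutive medians was -0.40 in the fit (-0.45 for the first table and -0.32 for the second). It was -0.36 against the constitutive subunits of the 20S core alone. Relative to the median core subunit of the same library, Psmb8 stood at 1.86 and 2 times in MSC KO-labelled libraries against 2.41 and 2.38 times in WT. Psmb9 stood at 1.36 and 1.39 times against 1.77 and 1.81 times in WT. Psmb10 stood at 0.187 and 0.164 times against 0.24 and 0.228 times in WT. These 3 did not overlap in FPKM either, where 32.5% of all genes were lower with no overlap. For all 3 the groups did not overlap on this ratio within a library, which a common scaling factor of a library leaves as it is. The share of all genes on this ratio was not computed, and the part of scaling was not tested. Psme1 did overlap on it, at 1.29 and 1.41 times against 1.36 and 1.34 times in WT, and so did Psme2, at 1.25 and 1.9 times against 1.8 and 1.79 times in WT.

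**Figure D2:**
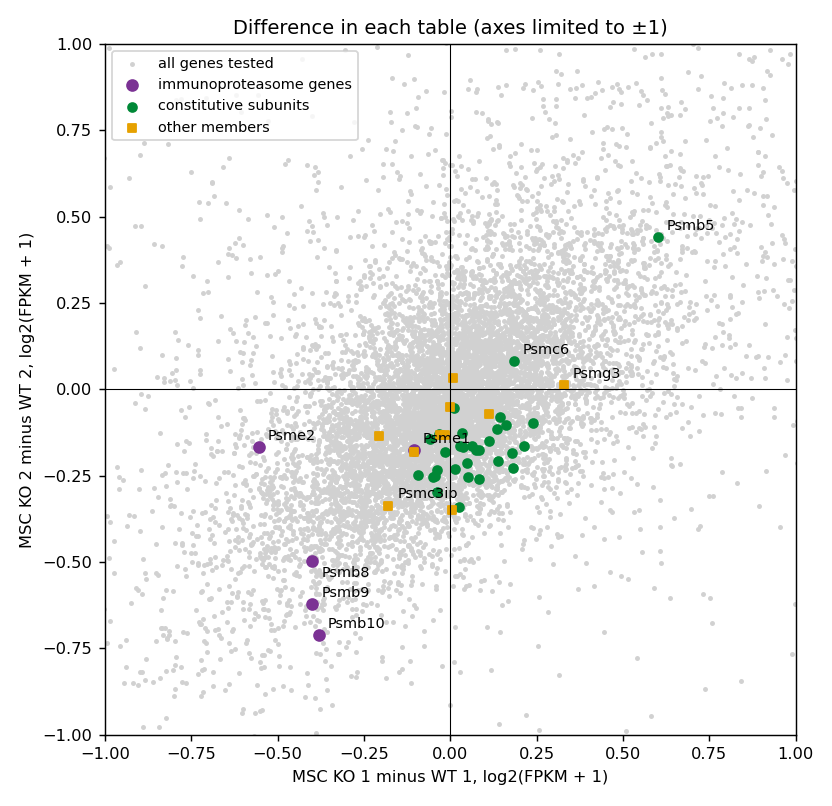
Difference between the MSC KO-labelled and the WT library in the second table (vertical) against the first (horizontal), both on the log2(FPKM + 1) scale, for all 10587 genes in grey and the members in colour, with axes limited to ±1. Psmb8, Psmb9 and Psmb10 lie in the lower left at about -0.40 in the first table, Psmb5 in the upper right, and most constitutive subunits right of 0 and below it.

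Psmb5, the constitutive beta 5 subunit with chymotrypsin-like activity, stood higher in MSC KO-labelled libraries, unlike the other core subunits. It was at 843 and 966 FPKM in MSC KO-labelled libraries against 555 and 711 FPKM in WT, 1.52 and 1.36 times the WT level, and the groups did not overlap. Its fitted difference was 0.52 ± 0.09 (limma, adjusted p = 0.153), and it was 0.34 without WT 1 and 0.70 without WT 2. It was also the member with the widest gap between the WT libraries in FPKM. In the authors' deposited tables its p-values were 0.614 and 0.768, larger than the 0.115 given in the first table to Psme2, whose fold was of like size. A processed pseudogene, Psmb5-ps, is annotated on chromosome 11, and reads of such a copy may have been counted with Psmb5. The other catalytic subunits lay slightly lower. Psmb6, with caspase-like activity, was at 179 and 158 FPKM against 185 and 188 in WT (-0.15 ± 0.1, adjusted p = 0.479, limma). Psmb7, with trypsin-like activity, was at 302 and 271 FPKM against 322 and 322 in WT (-0.17 ± 0.09, adjusted p = 0.388). Without MSC KO-labelled 1 the differences were -0.24 for Psmb6 and -0.25 for Psmb7, and without MSC KO-labelled 2 they were -0.06 for Psmb6 and -0.09 for Psmb7.

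Set against its constitutive counterpart, each inducible subunit held a smaller share of the summed FPKM for its catalytic site in MSC KO-labelled libraries. Psmb8 made up 39.1% and 34.8% of the summed FPKM of Psmb8 and Psmb5 in MSC KO-labelled libraries against 56.3% and 50.6% in WT. The ratio of Psmb8 to Psmb5 was 0.643 and 0.535 in MSC KO-labelled libraries against 1.29 and 1.03 in WT. The mean log2 difference of this ratio was -0.97, to which the higher Psmb5 adds. Leaving out 1 library, it ranged from -1.13 (without WT 2) to -0.80 (without WT 1). Reads of Psmb5-ps may have been counted with Psmb5, so that the beta 5 share is less certain. Psmb9 made up 68.9% and 69.5% of Psmb9 and Psmb6 against 73.9% and 74.6% in WT, and the log2 ratio differed by -0.36 for the first table and -0.37 for the second. Psmb10 made up 15.3% and 13.5% of Psmb10 and Psmb7 against 18.1% and 17.8% in WT, and the log2 ratio differed by -0.29 and -0.46. The groups did not overlap at any of the 3 sites, nor did they for the 3 inducible subunits alone. In FPKM 32.5% of all genes were lower with no overlap, and no other gene pairs were compared. No p is given for the ratios of the 3 sites, which share their genes with the tests above.

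**Figure D3:**
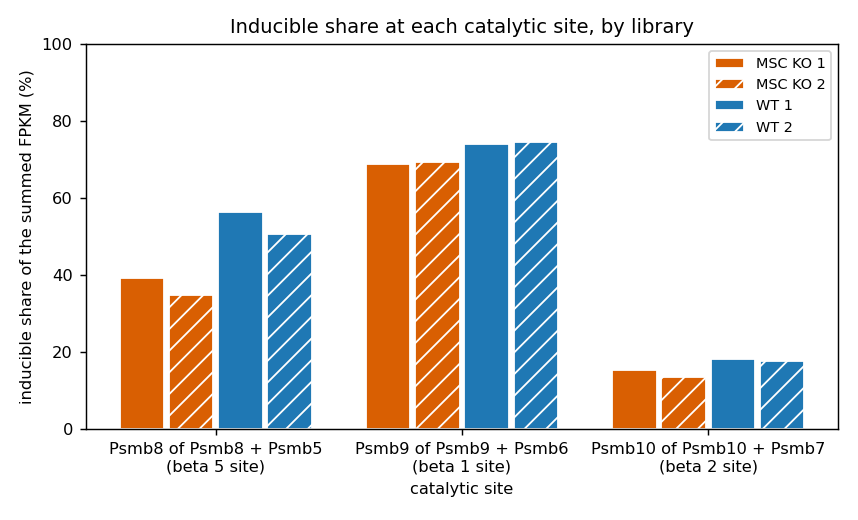
Inducible subunit as a percentage of the summed FPKM of the inducible and the constitutive subunit of a catalytic site, 1 bar a library, with the MSC KO-labelled libraries (orange) left of WT (blue) and hatching for replicate 2. The shares are lower in MSC KO-labelled libraries at each site, with the widest gap at beta 5 (39.1% and 34.8% against 56.3% and 50.6%). The beta 5 share rests on Psmb5, with which reads of Psmb5-ps may have been counted.

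The alpha ring, which gates the entry to the core, ranged between 151 and 393 FPKM over its 7 subunits and 4 libraries. All 7 were lower than WT in the second table, beside 5896 of 10587 genes tested. Lower in both were 3, beside 37.5% of all genes. The median difference over the ring was -0.09. Those 3 were Psma6 at 248 and 241 FPKM in MSC KO-labelled libraries against 259 and 266 FPKM in WT, Psma4 at 262 and 237 FPKM against 269 and 291, and Psma1 at 203 and 192 FPKM against 208 and 210. The other 4 overlapped between the groups, with MSC KO-labelled 1 above its WT library and MSC KO-labelled 2 below it. Psma2 was at 377 and 335 FPKM against 373 and 393, and Psma3 at 210 and 182 FPKM against 190 and 192. Psma5 was at 180 and 151 FPKM against 170 and 182, and Psma7 at 350 and 299 FPKM against 334 and 335. The structural beta subunits, which carry no catalytic site, followed the same pattern of opposite signs. Psmb1 was at 373 and 375 FPKM against 370 and 390 in WT, and Psmb2 at 281 and 245 FPKM against 271 and 285. Psmb3 was at 408 and 329 FPKM against 394 and 392, and Psmb4 at 489 and 408 FPKM against 453 and 452.

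The 19S genes were less abundant per length than those of the core. The median core subunit stood at 291 and 258 FPKM in MSC KO-labelled libraries against 297 and 306 FPKM in WT. The median 19S subunit stood at 109 and 92.7 FPKM against 101 and 101 in WT. The ratio of the medians was thus 2.67 and 2.78 in MSC KO-labelled libraries against 2.95 and 3.04 in WT. These ratios come from a few genes and were not tested.

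Among the 6 ATPases of the base, which unfold substrates, 5 were higher than WT in the first table, and 5 were lower in the second. Over all 10587 genes tested, 5225 were higher in the first table and 5896 were lower in the second. Psmc6 was higher in both tables at 129 and 118 FPKM in MSC KO-labelled libraries against 114 and 112 FPKM in WT (0.13 ± 0.09, adjusted p = 0.475, limma). Its difference was 0.07 without MSC KO-labelled 1 and 0.20 without MSC KO-labelled 2. Psmc1 was lower in both, at 115 and 100 FPKM against 116 and 114, and the groups overlapped. The other ATPases were above WT in the first table but below it in the second. Psmc2 was at 90.2 and 73 FPKM against 81.9 and 84.3, and Psmc3 at 102 and 85.9 FPKM against 96.8 and 97.1. Psmc4 was at 90.4 and 74.4 FPKM against 76.5 and 79.7, and Psmc5 at 115 and 92.7 FPKM against 99.3 and 104. The scaffold subunits Psmd1 and Psmd2 and the ubiquitin receptor Psmd4 were above WT in the first table but below it in the second. Psmd1 was at 57.8 and 49.8 FPKM against 54.5 and 56.4, and Psmd2 at 109 and 99.5 FPKM against 107 and 112. Psmd4 was at 139 and 113 FPKM against 124 and 121 in WT.

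The lid releases ubiquitin from the substrate through the deubiquitinase Psmd14. All 8 lid subunits were lower than WT in the second table, beside 5896 of 10587 genes tested. Lower in both were 2, beside 37.5% of all genes. The median difference over the lid was -0.06. Those 2 were Psmd8, at 194 and 168 FPKM in MSC KO-labelled libraries against 201 and 201 FPKM in WT, and Psmd11, at 76 and 71 FPKM against 78.1 and 83.6. Psmd14 overlapped between the groups, at 113 and 99.4 FPKM against 110 and 112. So did the structural lid subunits that remain. Psmd3 was at 125 and 95.1 FPKM against 110 and 111, and Psmd13 at 103 and 78.2 FPKM against 101 and 99.4. Psmd6 was at 87.1 and 81.3 FPKM against 85.1 and 88.9. Psmd7 was at 114 and 93 FPKM against 103 and 101, and Psmd12 at 77.8 and 63.9 FPKM against 68.6 and 72.7.

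The assembly factors were mixed. Psmg1 to Psmg4 encode chaperones of the alpha ring. Psmg3 was at 59.7 and 50.9 FPKM in MSC KO-labelled libraries against 47.4 and 50.5 FPKM in WT (0.17 ± 0.12, adjusted p = 0.496, limma), and Psmg2 at 75.3 and 76.8 FPKM against 74.9 and 75. The difference of Psmg3 was 0.06 without MSC KO-labelled 1 and 0.28 without MSC KO-labelled 2. Psmg3 and Psmg2 were higher in both tables as deposited, but Psmg2 was not with quantile normalization, and neither was with the libraries rescaled to the same sum. Psmg1 was at 74 and 65.4 FPKM against 74.9 and 71.8, and Psmg4 at 95.2 and 83.7 FPKM against 94.9 and 107. Of the chaperones of the 19S base, Psmd10 (gankyrin) was at 26.7 and 28.3 FPKM against 30.9 and 31.2 in WT (-0.17 ± 0.09, adjusted p = 0.383), and Psmd5 at 33.4 and 30.9 FPKM against 34.1 and 33.9. Psmd9 overlapped between the groups at 16.7 and 13.9 FPKM against 15.4 and 14.6. Psmc3ip, the recombination factor, was at 15.8 and 14 FPKM against 18 and 17.9 in WT (-0.26 ± 0.1, adjusted p = 0.275).

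Several of the genes lie side by side, as the mm9 positions of the tables show. Psmb9 and Psmb8 are separated by 10864 bp on chromosome 17, in the MHC class II region, with the peptide transporter gene Tap1 between them and Tap2 beyond Psmb8. Psme1 ends 2185 bp before Psme2 on chromosome 14. Psmb5 and Psmb11 are 7314 bp apart on the same chromosome. Psmb10 lies apart from the other inducible subunits, on chromosome 8.

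Genes that act with the immunoproteasome in peptide presentation were mostly lower as well. Of 10 tested genes of antigen processing and MHC class I, 8 were lower in both tables and 1 was higher, beside 37.5% and 31.2% of all genes, with a median difference of -0.24 (-0.18 for the first table and -0.28 for the second). Tap1 was at 125 and 142 FPKM in MSC KO-labelled libraries against 203 and 200 FPKM in WT, and its partner Tap2 at 77.7 and 69.8 FPKM against 95.3 and 98.1. B2m, the light chain of MHC class I, was at 1792 and 1933 FPKM against 2441 and 2388 in WT. Erap1, the peptidase that trims peptides in the endoplasmic reticulum, was at 16.8 and 16.5 FPKM against 21 and 21.4. H2-K1, a classical heavy chain, was at 724 and 723 FPKM against 752 and 754. Calr, which encodes a chaperone, was higher, at 278 and 240 FPKM against 214 and 220. The limma test passed none of the 10, beside 0.00945% of all genes tested.

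Interferon signalling genes, which drive the inducible subunits in many cell types, were split. Of 12 tested, 8 were lower in both tables and 3 were higher, beside 37.5% and 31.2% of all genes. The median difference was -0.19 (-0.25 for the first table and -0.08 for the second), beside -0.02 for all genes. Ifngr1, the ligand-binding chain of the interferon gamma receptor, was at 30.3 and 22.8 FPKM in MSC KO-labelled libraries against 57 and 60.6 FPKM in WT (-1.13 ± 0.16, adjusted p = 0.14, limma). Ifngr2, its signalling chain, was at 26.6 and 22.2 FPKM against 17.9 and 15.8 in WT. Irf1, a transcription factor known to induce immunoproteasome genes, was at 47.8 and 60.1 FPKM against 76.6 and 79.1. The kinase gene Jak2 was at 63.3 and 34.1 FPKM against 25.4 and 26.5. None of the 12 passed by limma, beside 0.00945% of all genes tested. The link between these genes and the proteasome genes was not tested.

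**Figure D4:**
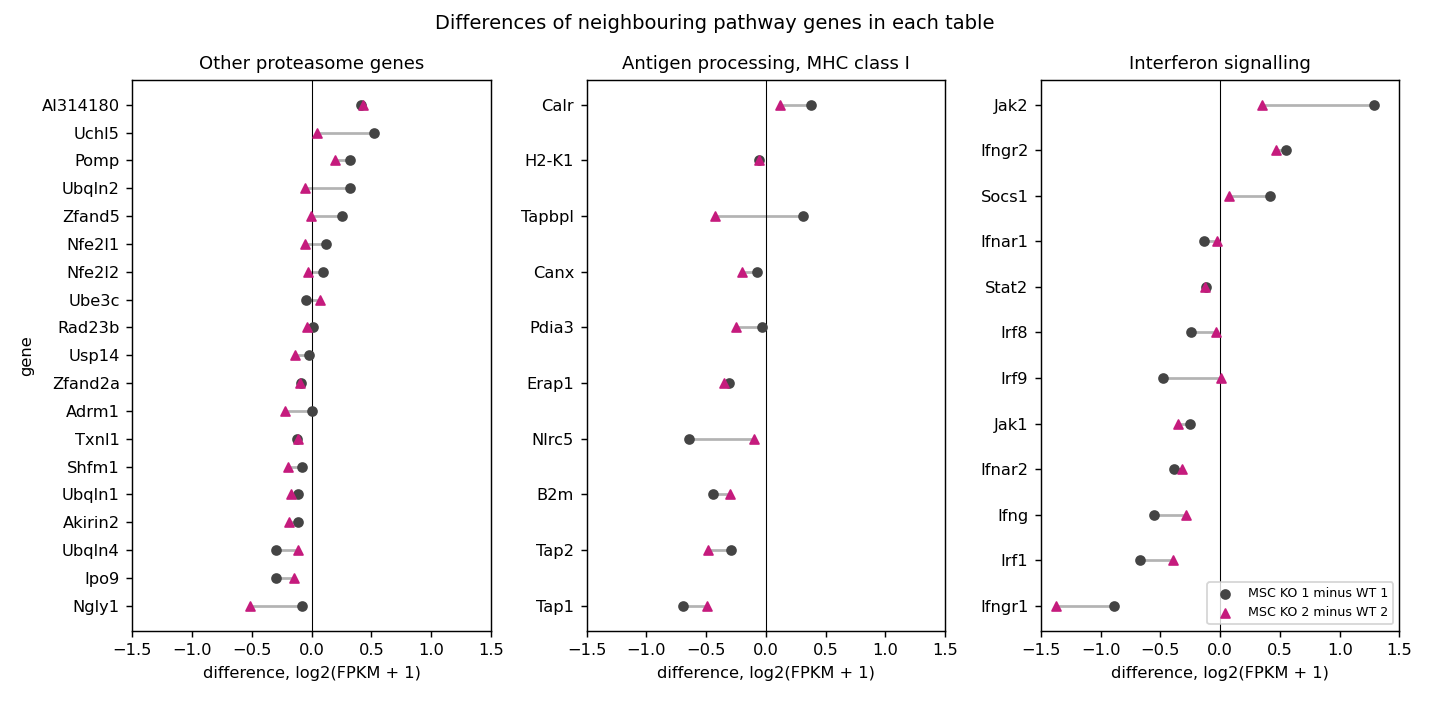
Differences of the MSC KO-labelled library from the WT library of the same table, on the log2(FPKM + 1) scale, for proteasome genes outside the symbol rule, antigen processing genes and interferon signalling genes, with circles for the first table and triangles for the second (1 tested gene is not drawn). Tap1, Tap2, B2m and Erap1 lie left of 0 in both tables, Ifngr1 lies farthest left (-0.89 and -1.37), and Jak2 and Ifngr2 lie right of 0.

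Proteasome genes that the symbol rule does not take, with partner enzymes and regulators, numbered 20 tested of a list of 25. Of these 11 were lower in both tables and 3 were higher, beside 37.5% and 31.2% of all genes. The median difference was -0.09, beside -0.02 for all genes. Pomp, the maturation factor of the core, was at 510 and 456 FPKM in MSC KO-labelled libraries against 408 and 400 FPKM in WT (0.26 ± 0.09, adjusted p = 0.248, limma). AI314180, the mouse counterpart of the adaptor Ecm29, was at 18.2 and 20.6 FPKM against 13.4 and 15 in WT. Ipo9, an importin that carries proteasomes into the nucleus, was at 10.3 and 11.6 FPKM against 12.9 and 13. Nfe2l1, the transcription factor that restores proteasome genes when the protease is inhibited, overlapped between the groups at 32.5 and 31.3 FPKM against 29.8 and 32.5. Among 10 ubiquitin and Vcp genes, 2 were lower in both tables and 4 higher, beside the same shares of all genes, with a median difference of -0.01. Faf1, a Vcp adaptor, was at 13.7 and 15.3 FPKM against 17.2 and 17.7, and Ufd1l, which works with Vcp, at 26.4 and 23.6 FPKM against 27.2 and 27. Uba1, the main ubiquitin-activating enzyme, was at 259 and 269 FPKM against 245 and 250, and Uba6, the other such enzyme, at 5.51 and 6.3 FPKM against 5.35 and 5.65.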

How the data were processed

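RNA-seq gave 2 libraries labelled MSC KO and 2 labelled WT. The authors deposited them in 2 tables of genes, each with 1 library of each genotype. The submitters' processing notes name TopHat and mm9; the counting program and annotation are not stated there or in the labels. The deposited values were taken to be FPKM because the tables have a Cuffdiff-like layout; no label names the unit, and the depth estimate and counting error rest on it. The authors' own p-value and q-value stand beside them.

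Rows with no symbol (1925 and 2325, which held 49.9% to 54.1% of the summed FPKM) and 24 symbols a table that read as dates were left out. Rows naming several genes stayed joint. A repeated symbol was represented by its row of highest mean. Symbols in both tables numbered 22129, of which 3 at loci that did not overlap and 6 with a failed estimate were dropped. The difference MSC KO minus WT was fitted with limma 3.58.1 (R 4.3.3) on log2(FPKM + 1), for genes with a mean of at least 1 FPKM, with the table as a block, a trended prior (2.35 degrees of freedom; 1 residual), two-sided, and Benjamini-Hochberg adjustment over all genes at 0.05. The code was tested on simulated data. Depth was estimated from single-transcript genes longer than 2500 bp with GENCODE M21 lengths, and covers counting error only. Sequences are from RefSeq. Python 3.11.15 and pandas 2.3.3 served for all joins.

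Members and lists were chosen with earlier results of these data known. All members are given with their values. Of each further list up to 4 genes are named, ranked by the smaller of their 2 differences among genes with the same sign in both tables; the markers and H2-K1, Calr and Nfe2l1 stand outside that rule, of which the last 3 were picked with their values in view. Statements on levels of members within a role that the same rule did not pick, such as Psma3 and Psmd14, were also added after their values were seen. The values of 1 gene of the list of other proteasome genes are not reported here, though the list's counts and median hold it.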

Additional observations from a re-analysis of the deposited data

How the results depend on the processing

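The immunoproteasome genes were lower in both tables, 5 of 5, under each setting that kept all 4 libraries, and their median was -0.52 with quantile normalization. Genes called numbered 153 with no replicate block, 3 with a filter at 5 FPKM, 7 with libraries rescaled to the same sum, 26 without small RNA symbols, and 0 with no filter, quantile normalization or a prior without trend. Leaving out 1 library gave 0 to 2665 genes and 0 to 10 members. Members higher in both tables were 4 as deposited, 2 after rescaling to the same sum and 3 with quantile normalization. Members lower in both tables were 19 as deposited, 28 after rescaling and 25 with quantile normalization, so both counts depend on the scaling. The median over all genes was -0.02 as deposited, -0.06 after rescaling and -0.03 with quantile normalization. Leaving out 1 library, the members' median ranged from -0.16 to 0.0045 and that of the constitutive subunits from -0.16 to 0.035, with the positive values without MSC KO-labelled 2; the cause was not tested. Leaving out 1 library, the difference of Psme4 (-0.03) ranged from -0.0945 to 0.0438, with 0.0438 without WT 2 and 0.019 without MSC KO-labelled 1. The replicate block was used since each table was made on its own. Over genes, the difference MSC KO-labelled 1 minus MSC KO-labelled 2 correlated at 0.06 with the difference WT 1 minus WT 2. The replicate numbers are thus not shown to pair cultures, and removing the block called 0 members.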
